A study of Mus musculus with 9 samples.

Results

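The replicate 1 pool of ovarian grafts recovered on day 20 post-transplantation is 1 of 9 arrays of the series, and it was set against the 2 other arrays of late grafts, day 15 replicate 1 and day 20 replicate 2. All 3 hold total RNA of XX ovaries that were taken at E13.0 and grown beneath the capsule of the kidney in adult XY nude mice, and each pools approximately 10 grafts. Busulfan, which alkylates DNA and depletes germ cells, had been given to the pregnant mothers, so that all groups share this treatment, the ungrafted day 0 ovaries included. The strain is ICR in the labels, and the methods give C57BL/6 and ICR for the pregnant donor mothers. The nude hosts were BALB/c by the methods. The numbers of litters and hosts behind the pools were not used here. The nude hosts have no thymus, yet keep B cells, natural killer cells and myeloid cells. The other 6 arrays were 2 of day 0, 1 of day 4, 1 of day 7 and 2 of day 10. The pool was singled out after its kidney transcripts had been seen, and it is a single array, so its differences from the late grafts are described by their size and have no p-value. In the following, day 20 replicate 1 is called the pool, and day 15 and day 20 replicate 2 are called the late grafts.

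The kidney nephron is a chain of epithelial segments, each with its own transporters. The proximal tubule takes back glucose, amino acids, phosphate, sulfate and filtered protein, the thick ascending limb takes up salt and makes uromodulin, the distal and connecting tubules handle salt and calcium, and principal and intercalated cells of the collecting duct handle water and acid. White fat stores triglyceride and secretes adiponectin and resistin, and it lies around the kidney of adult mice. The fetal ovary itself holds germ cells, pre-granulosa cells that express FOXL2, a steroidogenic lineage, stroma, vessels and a surface epithelium.

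The arrays read each transcript with short probes that lie towards its 3' end and are summarised as a probe set, and the deposited values are log2 intensities, on which a difference of 1 is a 2-fold change. A probe set was called higher where the pool exceeded both late grafts by more than 2-fold, and lower where it was below both by more than 2-fold. Of 45101 probe sets, 1603 were higher (3.55%) and 734 were lower (1.63%). With 1 probe set for each of 18194 genes, 770 genes were higher (4.23%) and 347 were lower (1.91%). These percentages are the background for every count of list members below. The gains were much larger than the losses. The smaller of both differences passed 4-fold in 574 higher probe sets and 16-fold in 177 of them, with a largest measured value of 9.31 on the log2 scale. Among the lower probe sets it passed 4-fold in 20 and 8-fold in 0, and the most negative value was -2.52. In 320 of the 1603 higher probe sets both late grafts were below 4.82, which is the 25th percentile over the whole table and is taken here as close to background, so that the sizes of these gains are lower bounds. With day 15 left out 1396 probe sets were lower, and with day 20 replicate 2 left out 1441 were, since only 1 array then had to be passed. Over all genes, the pool was the highest of the 9 arrays for 13.9% and the lowest for 30.4%, and it lay above the mean of the late grafts for 40.9% and below it for 59.0%. The pool was the highest of all 9 for 720 of the 770 higher genes, and the lowest of all 9 for 248 of the 347 lower genes. In a pool of tissue, a smaller share of cells of a type and less RNA per cell cannot be told apart.

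**Figure D1:**
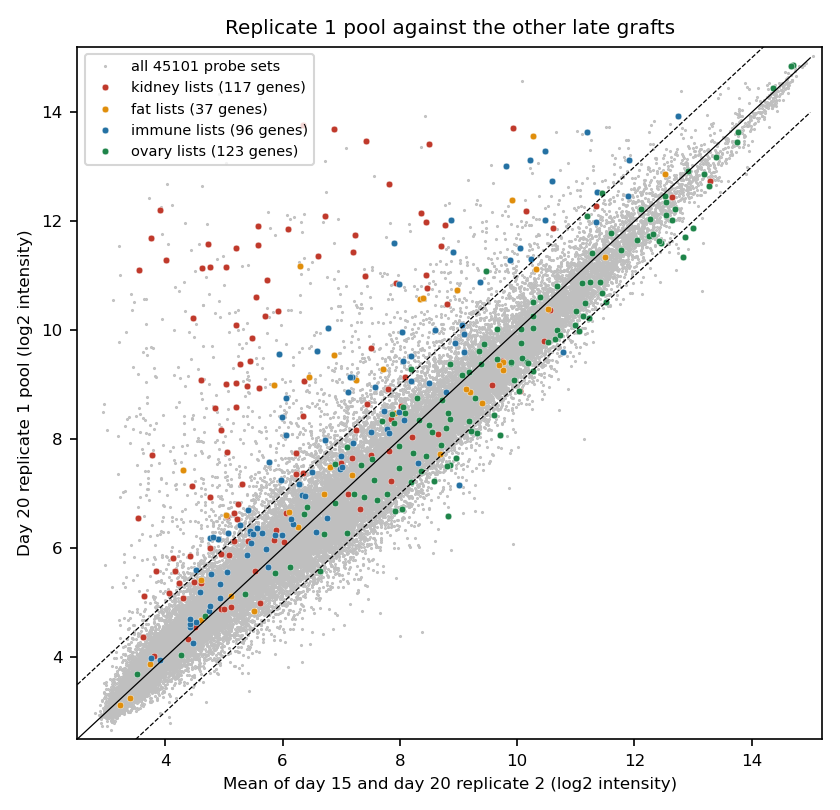
Log2 intensity of 45101 probe sets on the pool (vertical axis) against the mean of day 15 and day 20 replicate 2 (horizontal axis), with list genes coloured by tissue and dashed lines at a 2-fold change. Of the kidney genes (red), 74 of 117 were called higher and lie above the upper dashed line, whereas 2 of 123 ovarian genes (green) were called higher and 11 lower.

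The spread between the arrays sets the scale of these differences. The log2 differences over all probe sets had an SD of 0.70 between the pool and day 20 replicate 2, and of 0.72 between the pool and day 15. They had an SD of 0.32 between both late grafts, 0.34 between both day 10 arrays and 0.45 between both day 0 arrays. Over 2-fold differences counted 1831 higher and 1396 lower probe sets for the pool against day 20 replicate 2, although both carry the label of day 20, and 391 and 142 for day 20 replicate 2 against day 15. For 745 of the 770 higher genes and 328 of the 347 lower genes, the smaller difference was larger than the largest gap between paired arrays (both day 0 arrays, both day 10 arrays, or both late grafts). These genes had already been chosen for a difference over 2-fold, so that most would pass, and the counts are no test of the pool.

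Control probe sets moved with the pool as well. All 24 probe sets of the poly-A control RNAs (lys, phe, thr and dap), which are added to the sample RNA before labelling, were highest of 9 arrays on the pool, with a median of 8.65 against 6.32 on day 15 and 6.68 on day 20 replicate 2. The 18 hybridization control probe sets, added after labelling, differed by a median of 0.25. The 3 probe sets of 18S rRNA had a median of 11.60 on the pool, against 12.61 on day 15 and 12.60 on day 20 replicate 2. The Gapdh 3' probe set exceeded the 5' probe set by 0.44 on the pool, against 0.15 on day 15 and 0.15 on day 20 replicate 2, and for actin these differences were 0.97 on the pool, against 0.87 and 0.89 on the late grafts. Labelling used either of 2 kits, and which array had which is not given. The part of these control differences in the gains and losses was not tested.

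The 15 genes with the largest gains were in order Ugt2b38, Cyp2j5, Spink1, Acsm2, Slc5a12, Keg1, Dnase1, Umod, Ugt3a2, Cltrn, Glyat, Ces1f, Kcnj15, Slc13a1 and Ugt2b37. Ugt2b38, a UDP-glucuronosyltransferase that conjugates steroids and drugs, had 13.35 on the pool, against 4.62 on day 15 and 4.57 on day 20 replicate 2, a difference of at least 371-fold with late grafts under 4.82 set to 4.82. Cyp2j5, a P450 epoxygenase of arachidonic acid, had 12.43 on the pool, against 3.76 on day 15 and 3.67 on day 20 replicate 2. Both late grafts thus lay within 0.1 log2 of each other and below 4.82. Slc5a12, the sodium-coupled lactate transporter of the proximal tubule brush border, had 12.21 on the pool, against 3.84 and 3.99 on the late grafts. Cltrn, collectrin, which carries neutral amino acid transporters to that membrane, had 13.69 on the pool, against 6.02 on day 15 and 5.49 on day 20 replicate 2. Umod, uromodulin of the thick ascending limb, had 11.69 on the pool, against 3.74 and 3.78 on the late grafts, and between 3.57 and 3.93 on all 6 earlier arrays. It was the only 1 of the 15 that is a marker of the thick ascending limb. Kcnj15, an inward rectifier potassium channel, had 11.59 on the pool, against 4.13 and 3.97 on the late grafts. In 11 of the 15 genes both late grafts lay under 4.82, so that the order follows the measured values and rests in part on levels close to background. Set against 4.82 where lower, the gains were at least 53.3-fold for Ugt2b37, the last of the 15, and at least 89.1-fold for G6pc, the next gene in the measured order. Acsm2, a fatty acid CoA ligase, had late values of 5.76 and 5.28, above that level, and was 302-fold higher than the nearer array.

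**Figure D2:**
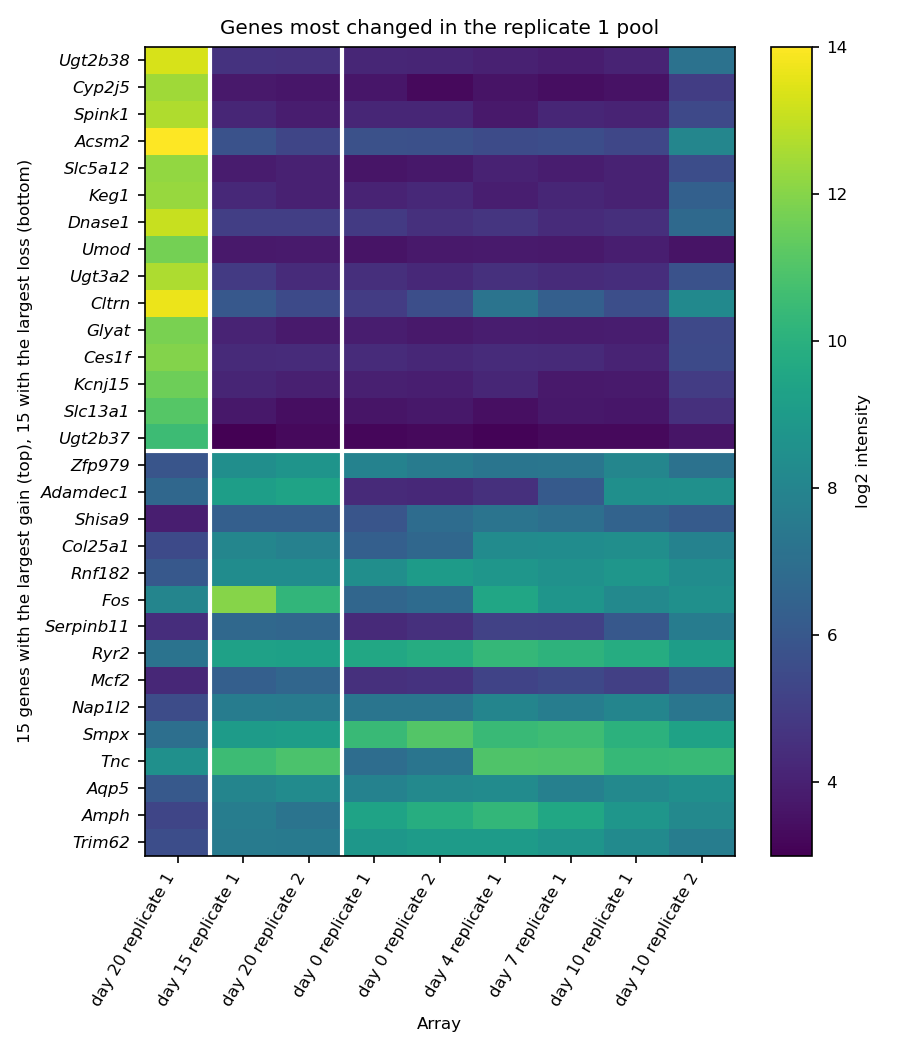
Log2 intensity (colour) of the 15 genes with the largest gain and the 15 with the largest loss (rows) on the 9 arrays (columns), with the pool at the left, then day 15 and day 20 replicate 2, then days 0 to 10. Outside the pool, 14 of the 15 gained genes have their highest value on day 10 replicate 2, from 3.64 for Ugt2b37 to 8.21 for Cltrn, which also reached 7.22 on day 4, whereas the lost genes are readily measured on the late grafts and have measured losses of 3.76-fold to 5.75-fold.

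Genes of the proximal tubule had the broadest gain. All 17 measured genes of proximal tubule transport were higher, with a median difference of 5.77 from the mean of the late grafts, against a median of -0.11 over all genes. Slc34a1, the sodium phosphate cotransporter, had 11.52 on the pool, against 5.48 on day 15 and 4.93 on day 20 replicate 2. Slc5a2, the sodium glucose cotransporter SGLT2 of the early proximal tubule, had 11.86 on the pool, against 6.12 and 6.05 on the late grafts. Lrp2, megalin, and Cubn, cubilin, which bind filtered proteins for endocytosis, had 12.09 and 11.16 on the pool, against 6.92 and 4.92 on day 15 and 6.52 and 4.63 on day 20 replicate 2. The lowest difference in the list was 2.93, for Slc7a7, a basolateral subunit for export of cationic amino acids, which had 10.87 on the pool, against 7.98 and 7.90 on the late grafts.

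Of 8 genes of the last proximal segment, S3, 6 were higher, with a median difference of 2.21. Slc7a13, an aspartate and glutamate carrier of S3 that is abundant in male mice, had 11.91 on the pool, against 5.61 and 5.56 on the late grafts. Napsa, the aspartic protease napsin A, had 11.74 on the pool, against 7.03 on day 15 and 7.44 on day 20 replicate 2. Slc5a1, the intestinal and S3 glucose transporter SGLT1, had 5.58 on the pool, against 3.84 and 3.86 on the late grafts, and this call was lost when values under 4.82 were raised to it. Slc22a7 and Slc22a13, organic anion transporters, had 4.89 and 5.58 on the pool, against 5.02 and 5.52 on day 15 and 4.87 and 5.56 on day 20 replicate 2, and thus no gain. Of 20 genes of proximal tubule metabolism, 16 were higher, with a median difference of 2.32. G6pc, glucose 6-phosphatase, the last step of glucose release, had 11.30 on the pool, against 4.17 on day 15 and 3.86 on day 20 replicate 2. Fbp1, fructose 1,6-bisphosphatase, had 13.41 on the pool, against 8.68 and 8.30 on the late grafts. Miox, which opens inositol in the kidney, had 13.71 on the pool, against 10.00 on day 15 and 9.86 on day 20 replicate 2, so it was already well above background in the late grafts. Hgd, Sardh, Dpys and Ass1, which break down tyrosine, sarcosine and pyrimidines or make argininosuccinate, were not called, with differences from -0.62 to 0.77. The probe set used for Ass1 was close to background, with 5.37 on the pool, against 4.49 and 4.71 on the late grafts. Probe sets without a single symbol were not used, so whether Ass1 was gained is not settled here.

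Promoters of 3 of these genes show what the proximal tubule genes can carry in their DNA. These 3 were picked for a large difference and for holding a motif searched below. The HNF1 factors of kidney and liver bind a palindrome with GTTAAT as an arm, and HNF4 factors bind sequences such as CAAAGTCCA. Both motifs were searched on both strands of RefSeq windows (GRCm38.p6) of 250 bases before to 50 bases after the start of a gene. The capitals below mark matches, so that ATTAAC is GTTAAT read on the other strand. G6pc, at chr11:101367466-101367765 on the plus strand, has GTTAAT from 221 bases before its start. Slc3a1, the heavy chain of the cystine transporter, at chr17:85028097-85028396 on the plus strand, has CAAAGTCCA from 39 bases before its start and GTTAAT on the minus strand from base 2 of the transcript. Slc34a1, at chr13:55399398-55399697 on the plus strand, has GTTAAT on the minus strand from 89 bases and on the plus strand from 61 bases before its start.
G6pc: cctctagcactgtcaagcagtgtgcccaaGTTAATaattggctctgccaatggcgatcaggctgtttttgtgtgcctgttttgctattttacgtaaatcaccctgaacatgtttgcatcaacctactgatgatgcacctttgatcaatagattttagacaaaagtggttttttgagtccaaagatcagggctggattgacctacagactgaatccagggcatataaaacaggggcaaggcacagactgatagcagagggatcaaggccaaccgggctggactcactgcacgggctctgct
Slc3a1: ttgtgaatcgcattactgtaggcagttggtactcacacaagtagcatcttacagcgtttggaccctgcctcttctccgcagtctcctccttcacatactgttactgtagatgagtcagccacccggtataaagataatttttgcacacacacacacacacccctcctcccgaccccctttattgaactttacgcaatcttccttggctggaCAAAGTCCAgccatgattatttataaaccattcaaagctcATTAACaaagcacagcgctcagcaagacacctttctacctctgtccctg
Slc34a1: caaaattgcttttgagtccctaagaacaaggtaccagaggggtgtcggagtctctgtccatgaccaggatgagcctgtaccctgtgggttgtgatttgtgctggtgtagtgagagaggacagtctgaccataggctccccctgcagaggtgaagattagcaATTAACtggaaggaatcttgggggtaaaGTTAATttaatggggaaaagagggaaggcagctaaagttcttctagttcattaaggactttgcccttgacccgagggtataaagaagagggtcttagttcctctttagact
Over the proximal tubule genes that were higher and had a window, 10 of 47 windows held GTTAAT (21.3%), against 7.10% of all 32851 windows, and 4 of 47 held CAAAGTCCA (8.51%), against 0.475% of all windows. Some genes have several windows. Counted by gene, 10 of 37 held GTTAAT (27.0%), against 8.24% of all genes, and 3 of 37 held CAAAGTCCA (8.11%), against 0.555%. The full HNF1 palindrome was in 0 of the 47 windows and in 0.0091% of all windows. The matches are a description of letters, and these shares were not put to a test.

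Distal segments of the nephron were also gained. Of 9 genes of the thick ascending limb, 6 were higher, with a median difference of 2.70. Beside Umod, Slc12a1, the salt transporter NKCC2 that loop diuretics block, had 6.56 on the pool, against 3.57 on day 15 and 3.50 on day 20 replicate 2. Egf, made by the thick limb and distal tubule, had 10.27 on the pool, against 5.38 on day 15 and 6.04 on day 20 replicate 2. Of 9 genes of the distal convoluted and connecting tubules, 7 were higher, with a median difference of 3.84. Slc12a3, the thiazide-sensitive salt transporter, had 8.58 on the pool, against 4.92 and 4.79 on the late grafts. Kl, the FGF23 coreceptor klotho, had 10.23 on the pool, against 4.57 and 4.38 on the late grafts. Klk1, tissue kallikrein of the connecting tubule, had 12.69 on the pool, against 6.95 on day 15 and 8.69 on day 20 replicate 2, a gap of 1.74 between both late grafts.

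The collecting duct had smaller gains. Of 9 principal cell genes, 3 were higher, and 5 with day 15 left out, with a median difference of 0.80. Aqp2, the vasopressin-regulated water channel, had 7.37 on the pool, against 6.36 on day 15 and 6.11 on day 20 replicate 2, just past 2-fold. Aqp3, a basolateral water channel, had 6.64 on the pool, against 5.33 and 5.03 on the late grafts, and this call was lost with the median of all its probe sets. Of 9 intercalated cell genes, 4 were higher, with a median difference of 1.13. Slc26a4, the chloride bicarbonate exchanger pendrin, had 8.17 on the pool, against 4.80 on day 15 and 5.10 on day 20 replicate 2, the largest difference of the list.

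Kidney transcription factors and the parts of the kidney outside the tubules differed in the same comparison. Hnf4a, which drives proximal tubule genes, had 10.92 on the pool, against 5.83 and 5.65 on the late grafts, and Esrrg, an orphan receptor of distal segments, had 8.94 on the pool, against 5.26 on day 15 and 5.93 on day 20 replicate 2. In all, 5 of 8 measured nephron transcription factors were higher, with a median difference of 1.13. Of 8 podocyte genes only Clic5, a chloride channel family member that endothelium also expresses, was higher (2 genes with day 20 replicate 2 left out), with 8.59 on the pool, against 5.03 and 5.38 on the late grafts. Nphs1, nephrin of the podocyte slit diaphragm, had 6.14 on the pool, against 5.59 on day 15 and 5.24 on day 20 replicate 2, and Podxl had 9.44 on the pool, against 9.76 and 9.73. The podocyte list had a median difference of 0.05, with 4 genes above the mean of the late grafts and 4 below. Enpep, Synpo, Tdrd5 and Podxl of this list already had means of 12.6, 10.6, 10.1 and 9.7 on the late grafts. The list median therefore says little about podocytes. Ptpro had 8.17 on the pool, against 7.07 and 7.43 on the late grafts, without a call. Wt1, which podocytes share with the gonad, was 10.51 on the pool, against 11.41 and 11.63 on the late grafts. Of 3 genes of renal vessels and interstitium, Agtr1a, an angiotensin receptor, was higher, with 8.65 on the pool, against 7.51 and 7.37 on the late grafts. In the tubule injury list, 2 of 7 were higher. Havcr1 (KIM-1), an injury marker of proximal tubules, had 6.94 on the pool, against 4.47 on day 15 and 5.04 on day 20 replicate 2, and Vcam1, an adhesion molecule, had 10.79 on the pool, against 8.19 and 8.75. Lcn2 had 7.79 on the pool, between 6.44 on day 15 and 9.19 on day 20 replicate 2.

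The hosts were XY, and the mouse kidney differs between the sexes. Of 8 genes known to be higher in male than in female mouse kidney, 6 were higher on the pool, with a median difference of 5.23. Kap, the androgen-regulated kidney protein, had 13.69 on the pool, against 7.30 on day 15 and 6.44 on day 20 replicate 2. Slco1a1, an organic anion carrier, had 9.86 on the pool, against 5.42 and 5.54 on the late grafts. Of 3 genes known to be higher in female kidney, 1 was higher on the pool, Slc7a12, a neutral amino acid carrier, with 5.12 on the pool, against 3.67 and 3.60 on the late grafts, and this call was lost when values under 4.82 were raised to it. Cyp4a14 and Abcc3 differed from the mean of the late grafts by 0.22 and -0.61 and were not called. The grafts were XX, so that Y-linked genes mark cells of the host. Eif2s3y, a translation initiation factor gene of the Y chromosome, had 8.71 on the pool, against 5.95 on day 15 and 6.50 on day 20 replicate 2. Uty, a histone demethylase homologue, had 7.26 on the pool, against 4.74 and 5.35 on the late grafts, and its median over all of its probe sets differed by 0.71, short of the call. Kdm5d had 5.33 on the pool, against 4.15 on day 15 and 4.55 on day 20 replicate 2. The day 4 array had 5.43 for Kdm5d, above the pool, and 7.70 for Eif2s3y and 5.96 for Uty, below the pool but above both late grafts.

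**Figure D3:**
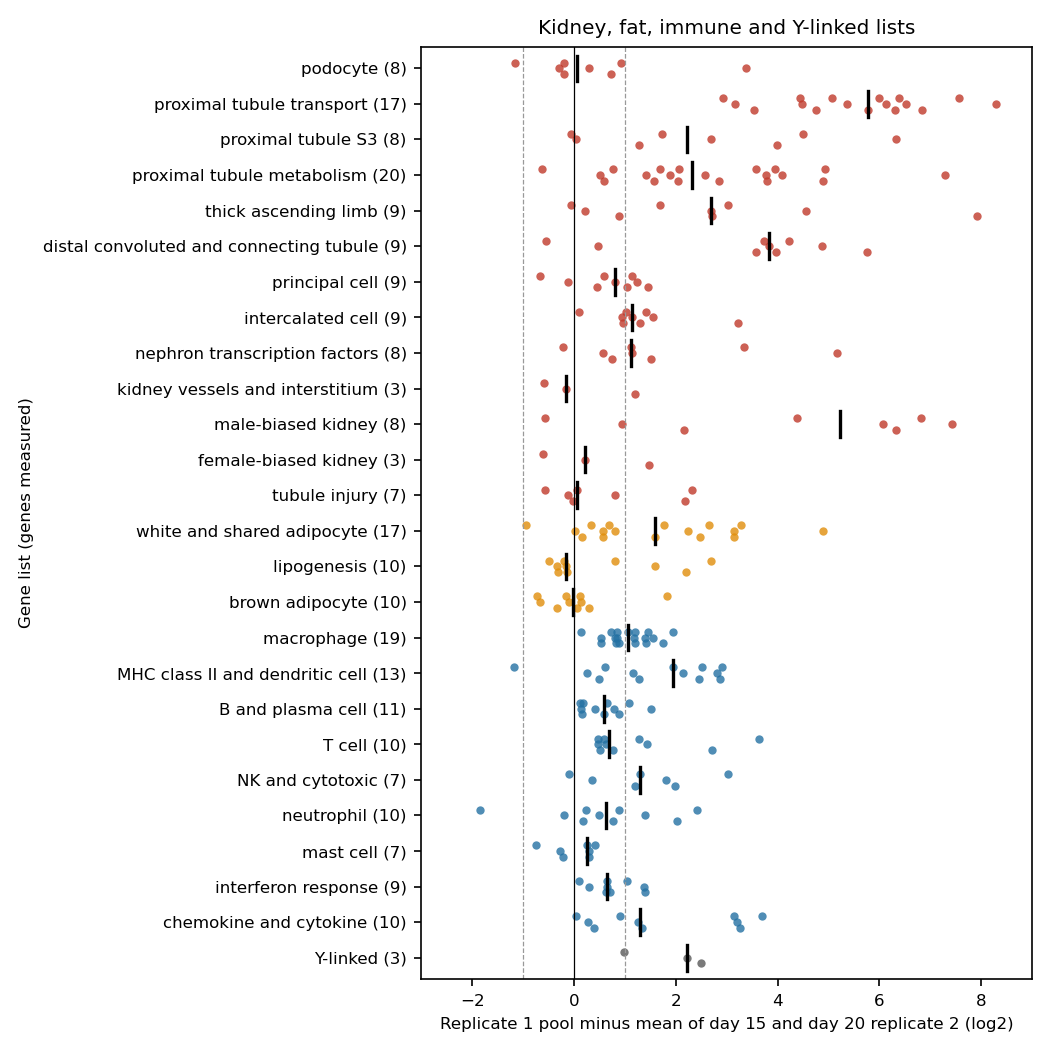
Difference on the log2 scale between the pool and the mean of day 15 and day 20 replicate 2 (horizontal axis) for each gene (point) of the kidney, fat, immune and Y-linked lists (rows), with the list median as a black bar and dashed lines at a 2-fold change. The proximal tubule transport genes lie from 2.93 to 8.30, with no overlap with 0. The podocyte list, which includes genes already high on the late grafts, has a median of 0.05.

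A white fat signature was gained in part. Of 17 genes of white and shared adipocytes, 9 were higher, with a median difference of 1.59. Adipoq, adiponectin, had 11.18 on the pool, against 6.01 on day 15 and 6.59 on day 20 replicate 2, 24.1-fold above the nearer array. Cidec, a lipid droplet protein, had 7.44 on the pool, against 4.30 and 4.30 on the late grafts, and Retn, resistin, had 9.54 on the pool, against 6.80 and 6.96. Car3, a carbonic anhydrase abundant in fat, had 13.56 on the pool, against 9.40 on day 15 and 11.16 on day 20 replicate 2. Pparg, the master regulator of adipocytes, had 7.74 on the pool, against 8.48 on day 15 and 8.88 on day 20 replicate 2. Lep, leptin, had 5.42 on the pool, against 4.64 and 4.57, so neither was called. Pparg had 4.95 and 5.58 on the day 0 arrays, so it also rose in the late grafts. Cd36, Fabp4 and Gpd1, which were higher, are expressed in vessels, macrophages or kidney as well. Of 10 lipogenesis genes, 3 were higher, Scd1, Thrsp and Mlxipl, and the median difference was -0.15. Of 10 brown fat genes, 1 was higher, Ppargc1a, a coactivator of mitochondrial genes that kidney also expresses, with 9.09 on the pool, against 7.06 on day 15 and 7.46 on day 20 replicate 2. The defining brown fat gene Ucp1 had 4.68 on the pool, against 4.82 and 4.41 on the late grafts.

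Of 96 immune genes, 30 were higher on the pool and 0 lower. Against day 15 alone 53 were higher, where 5.91% of all genes were, and against day 20 replicate 2 alone 30 were, where 4.61% were. MHC class II and dendritic cell genes had the most calls, 8 of 13, with median differences of 1.98 from day 15 and 1.49 from day 20 replicate 2. H2-Ab1, the class II beta chain, had 13.12 on the pool, against 9.36 on day 15 and 11.08 on day 20 replicate 2, and Itgax, CD11c of dendritic cells, had 9.14 on the pool, against 7.16 and 7.21. The dendritic cell factor Zbtb46 had 9.60 on the pool, against 11.10 on day 15 and 10.48 on day 20 replicate 2. It had 10.33 and 10.32 on the day 0 arrays, where the list medians were 5.93 and 6.24. The ungrafted ovaries thus already express it, and it does not mark dendritic cells alone here. All 19 macrophage genes were above the mean of the late grafts, but only 5 were called, C1qa, C1qb, C1qc, Aif1 and Ccr2, with median differences of 1.53 from day 15 and 0.60 from day 20 replicate 2. With day 20 replicate 2 left out, 15 macrophage genes were called. The macrophage receptor gene Csf1r had 12.54 on the pool, against 11.01 on day 15 and 11.72 on day 20 replicate 2, and Adgre1, a macrophage surface receptor, had 9.07 on the pool, against 7.90 and 8.47. The early grafts exceeded the pool for several of these genes, since Adgre1 reached 9.52 and Lyz2 reached 14.12 on an earlier array, against 13.93 for Lyz2 on the pool.

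Of 10 T cell genes, 4 were higher, with median differences of 0.87 from day 15 and 0.82 from day 20 replicate 2. Cd3g, a chain of the T cell receptor complex, had 9.57 on the pool, against 4.78 on day 15 and 7.11 on day 20 replicate 2, and Cd3d had 8.76 on the pool, against 5.38 and 6.73. Cd4 and Cd8a had 7.46 and 6.09 on the pool, against 7.07 and 5.81 on day 15 and 6.89 and 5.11 on day 20 replicate 2, without a call. Of 7 natural killer and cytotoxic genes, 4 were higher. Nkg7, a cytotoxic granule protein, had the largest difference, 3.03 from the mean of the late grafts. Gzmb, granzyme B, had 7.59 on the pool, against 5.44 and 6.11 on the late grafts. Gzma, granzyme A, had 9.14 on the pool, against 6.67 and 7.62. Day 7 exceeded the pool for both, with 8.41 for Gzmb and 9.89 for Gzma, but not for Nkg7, with 7.45. Of 11 B and plasma cell genes 0 were called, and 6 with day 20 replicate 2 left out, with median differences of 1.01 from day 15 and 0.27 from day 20 replicate 2, and Jchain had 10.88 on the pool, against 8.26 on day 15 and 10.48 on day 20 replicate 2. Neutrophil genes had 3 of 10 calls, S100a8, S100a9 and Ngp, while Ltf, lactoferrin, had 7.16 on the pool, against 6.69 on day 15 and 11.33 on day 20 replicate 2. S100a8, S100a9 and Ngp had 8.40, 8.08 and 6.22 on the pool, so the pool was not their highest array. They had 10.01, 9.70 and 7.85 on day 0 replicate 1, and 10.43, 10.13 and 6.56 on day 10 replicate 2. Mast cell genes had 0 of 7 calls, and interferon response genes 0 of 9, or 5 with day 20 replicate 2 left out. Chemokines had 6 of 10 calls. Cxcl9, an interferon gamma target that draws T cells, had 11.60 on the pool, against 6.99 on day 15 and 8.81 on day 20 replicate 2. Ccl8 had 13.01 on the pool, against 8.76 and 10.87. On day 7 both Cxcl9 and Ccl8 had 11.58, for Cxcl9 close to the pool. Cxcl10, also called, had 11.17 on day 7, against 9.53 on the pool. Il1b, Il6 and Tnf had 6.54, 3.96 and 5.98 on the pool, against 5.93, 3.91 and 6.10 on day 15 and 6.34, 3.91 and 5.33 on day 20 replicate 2.

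The 15 genes with the largest losses were Zfp979, Adamdec1, Shisa9, Col25a1, Rnf182, Fos, Serpinb11, Ryr2, Mcf2, Nap1l2, Smpx, Tnc, Aqp5, Amph and Trim62. Adamdec1, a secreted metalloprotease, had 6.69 on the pool, against 9.19 on day 15 and 9.37 on day 20 replicate 2. Col25a1, a transmembrane collagen, had 5.45 on the pool, against 8.04 and 7.83 on the late grafts. Ryr2, a calcium release channel, had 7.17 on the pool, against 9.30 and 9.27 on the late grafts, and between 9.13 and 10.30 on the 6 earlier arrays, so the pool was below all of the others. Smpx, a small muscle protein gene, had 7.02 on the pool, against 9.03 and 9.12, and its earlier values reached 11.06. Tnc, the matrix protein tenascin-C, had 8.53 on the pool, against 10.54 on day 15 and 10.90 on day 20 replicate 2, but 6.95 was the lowest value, on an ungrafted array. Aqp5, a water channel, had 6.07 on the pool, against 8.02 and 8.30 on the late grafts. For Shisa9, Ryr2 and Trim62 the median of all probe sets of the gene differed by -0.48, -1.03 and -0.05, and the call was lost.

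Over all ovarian lists, 11 of 123 genes were lower and 2 were higher, with a median difference of -0.39. With day 15 left out 20 were lower and 4 higher, where 3.68% and 4.61% of all genes were, and with day 20 replicate 2 left out 18 were lower and 5 higher, where 3.67% and 5.91% were. With the median of all probe sets of a gene, 7 were lower and 1 was higher. All 18 pre-granulosa and gonadal regulator genes were below the mean of the late grafts, with a median difference of -1.03, and 6 of them were called, Foxl2, Nr0b1, Lgr5, Gata4, Lzts1 and Gng13, or 11 with day 15 left out. Foxl2, which keeps granulosa cell identity, had 11.71 on the pool, against 12.76 on day 15 and 12.98 on day 20 replicate 2, and its earlier values were between 11.44 and 12.93. Gata4, a gonadal somatic factor, had 7.53 on the pool, against 8.89 and 8.82 on the late grafts, and was lowest of all arrays on the pool. Gng13, a G protein subunit, had 6.59 on the pool, against 9.17 on day 15 and 8.46 on day 20 replicate 2, the largest loss of the list. With the median of all probe sets of a gene, Foxl2, Lgr5 and Gng13 were lower by less than 2-fold. Of 11 genes of growing follicles, Kitl and Amhr2 were lower. Kitl, the granulosa ligand of the oocyte receptor KIT, had 11.35 on the pool, against 13.04 on day 15 and 12.64 on day 20 replicate 2. Inhba, an activin subunit that other tissues also express, had 9.29 on the pool, against 8.19 and 8.19 on the late grafts.

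The oocyte and Sertoli lists had 0 calls, or 1 and 2 lower genes with day 20 replicate 2 left out. All 15 oocyte genes were below the mean of the late grafts, with a median difference of -0.53. Zp3, of the zona pellucida, had 11.63 on the pool, against 12.45 and 12.38 on the late grafts, and Gdf9, an oocyte growth factor, had 12.36 on the pool, against 12.34 on day 15 and 12.74 on day 20 replicate 2. Both remained high on the pool, as did Foxl2, so the label of ovary held for it. Of the 14 Sertoli genes, Sox9 had 6.89 on the pool, against 7.91 on day 15 and 7.31 on day 20 replicate 2, and the list median was -0.29. The steroidogenic list had a median of 0.14, with Cyp17a1, the androgen synthesis enzyme, at 8.47 on the pool, against 6.91 on day 15 and 8.83 on day 20 replicate 2. Stromal genes had 1 call in each direction (3 higher with day 15 left out), Fmod, fibromodulin, at 11.10 on the pool, against 9.36 and 9.60 on the late grafts, and Aspn, asporin, at 9.98 on the pool and 11.12 on day 15, with a difference of -1.02 from day 20 replicate 2, the nearer array. Col1a2 had 14.86 on the pool, against 14.71 and 14.69 on the late grafts. The surface epithelium list had a median difference of 0.14 from day 15 and -0.66 from day 20 replicate 2, and its only call, or 1 of 4 lower genes with day 15 left out, was Aldh1a2, which makes retinoic acid, at 8.08 on the pool, against 9.71 and 9.70. Endothelium, with a median of -0.32 over 14 genes, and smooth muscle, with 0.00 over 13, had no calls, although 3 endothelial genes were lower with day 20 replicate 2 left out. Among lymphatic genes only Reln, reelin, was lower, at 7.52 on the pool, against 8.78 and 8.82, and not with the median of its probe sets.

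**Figure D4:**
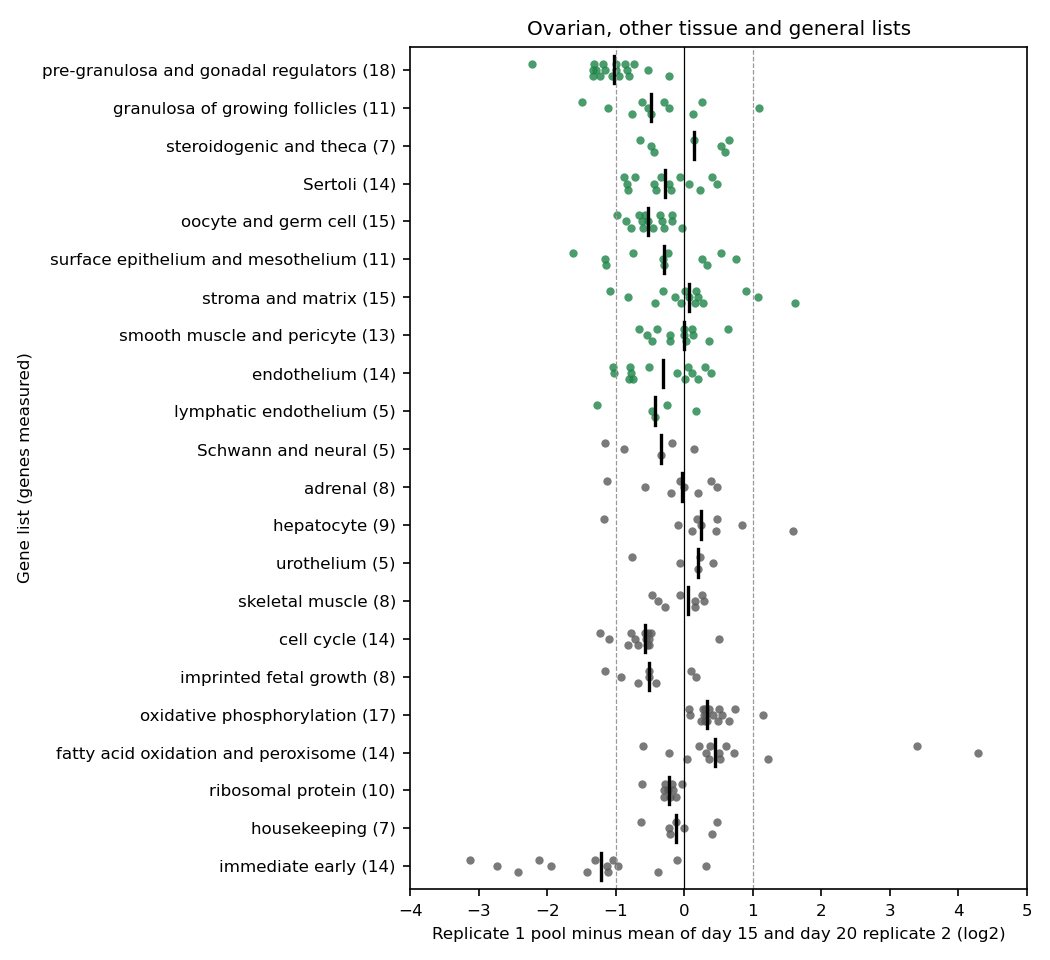
Difference on the log2 scale between the pool and the mean of day 15 and day 20 replicate 2 (horizontal axis) for each gene (point) of the ovarian, other tissue and general lists (rows), with the list median as a black bar and dashed lines at a 2-fold change. The pre-granulosa list has its median at -1.03 and all 18 genes under 0, and the immediate early list reaches -3.13, for Fos.

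Of 14 immediate early genes, which are transcribed within minutes of a stimulus, 4 were lower on the pool, and 10 with day 20 replicate 2 left out. The list median was 8.25 on the pool, against 10.70 on day 15 and 8.80 on day 20 replicate 2, and it ran from 7.66 to 8.62 on the 6 earlier arrays, so the pool lay within the range of those. Fos had 8.01 on the pool, against 12.02 on day 15 and 10.26 on day 20 replicate 2, and 6.61 to 9.50 on the earlier arrays. Egr1 had 10.71 on the pool, against 14.23 and 12.07 on the late grafts. Nr4a1 and Ier2 were the other members called, and the list had median differences of -2.18 from day 15 and -0.73 from day 20 replicate 2. Of 14 cell cycle genes, 13 were below the mean of the late grafts, with a median of -0.57, and Aurkb, a mitotic kinase, was the 1 called (3 with day 20 replicate 2 left out), at 6.78 on the pool, against 8.05 and 7.98. All 17 genes of oxidative phosphorylation were above that mean, with a median of 0.33, and Cycs, cytochrome c, was called at 13.41 on the pool, against 12.34 and 12.19. In the list of fatty acid oxidation and peroxisomes, 3 of 14 were higher, Ehhadh, Acaa1b and Cat, which kidney expresses at high levels. All 10 ribosomal protein genes lay slightly below the late grafts, with a median of -0.22. Of 8 imprinted genes of fetal growth, 1 was called (3 with day 20 replicate 2 left out), Peg3, at 11.43 on the pool, against 12.71 and 12.47.

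Lists of other tissues had few calls. Of 9 hepatocyte genes, Ttr, transthyretin, was higher, at 7.75 on the pool, against 6.16 and 6.15 on the late grafts, and Apoa1 was lower, at 8.30 on the pool, against 9.38 and 9.58, while Alb, albumin, had 5.70 on the pool, against 5.34 and 5.11. Adrenal, urothelial, skeletal muscle, Schwann cell and adult erythroid genes had 0 calls among 8, 5, 8, 5 and 5. The adrenal enzyme gene Cyp11b1 had 4.24 on the pool, against 4.25 and 4.25 on the late grafts.

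**Figure D5:**
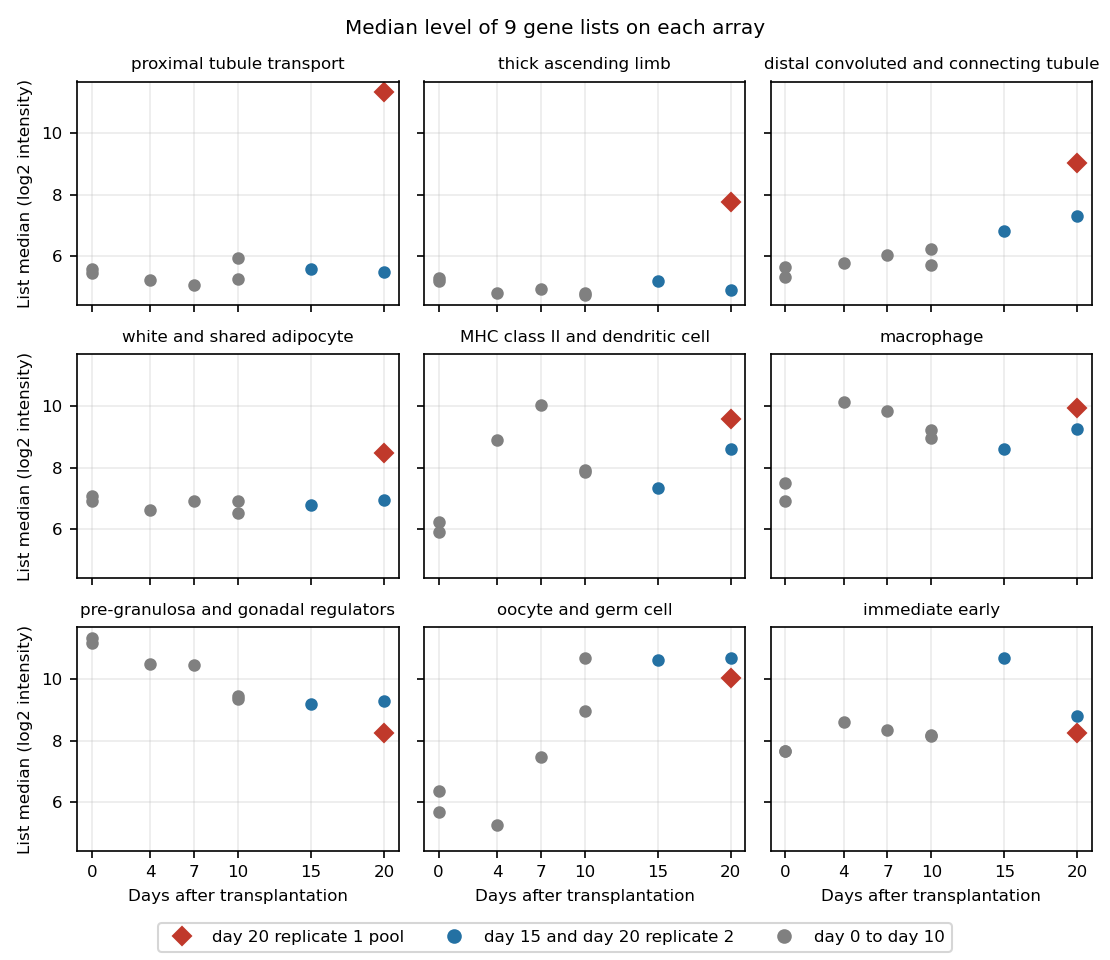
Median log2 intensity of 9 gene lists (panels) on each array (points) against days after transplantation, with the pool as a red diamond, day 15 and day 20 replicate 2 in blue and the earlier arrays in grey. The proximal tubule transport median is 11.36 on the pool and no more than 5.95 on any other array, whereas the MHC class II median on the pool lies below that of day 7.

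Day 10 replicate 2 also showed some of the gained transcripts. It exceeded day 10 replicate 1 by over 2-fold for 820 probe sets (1.82%), and these held 173 of the 1603 probe sets higher on the pool (10.8%), or 21.1% of the 820. Ugt2b38 had 13.35 on the pool, 7.13 on day 10 replicate 2 and 4.08 on day 10 replicate 1. Umod had 3.57 on day 10 replicate 2 and 3.93 on day 10 replicate 1, so the transcript of the thick ascending limb did not move with it.

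The choice of late array bears on lists of genes that change with the graft. The study named a list of 261 probe sets Sertoli cell-specific and upregulated by day 20, from both day 20 arrays. It was chosen on these same samples, the pool included, so that probe sets high on the pool alone could enter it. Neither its direction nor its shares beside those of all probe sets are independent evidence. Among the 261, 129 were over 2-fold above the day 0 mean on the pool, 91 on day 15 and 99 on day 20 replicate 2. Over all probe sets these shares were 9.45%, 6.49% and 7.61%. The pool alone of the 3 arrays passed for 87 of the 261, against 3.96% of all probe sets. With the mean of both day 20 arrays 96 passed, against 8.2% of all. The study states a 2-fold threshold for this list, so its selection was not reproduced by this measure. Of the 261, 44 passed with this mean but not on day 20 replicate 2, against 1.97% of all. By the comparison with both late grafts, 60 of the 261 were higher on the pool and 8 lower, against 3.55% and 1.63% of all probe sets. Hao2, a hydroxyacid oxidase of kidney peroxisomes, had 12.15 on the pool, against 7.79 on day 15 and 8.94 on day 20 replicate 2. Crym, a thyroid hormone binding protein, had 9.11 on the pool, against 4.87 and 5.91 on the late grafts. In the list of 141 Sertoli cell-specific probe sets upregulated by day 10, 6 were higher and 10 lower, and in the list of 189 pre-granulosa cell-specific probe sets downregulated by day 10, 5 were higher and 27 lower. Amph, amphiphysin, in this last list, had 5.30 on the pool, against 7.65 on day 15 and 7.23 on day 20 replicate 2. For both of these lists the counts of higher probe sets are near the 3.55% of all probe sets. Fah, of tyrosine breakdown, was among the higher ones of the pre-granulosa list, with 11.02 on the pool, against 8.29 and 8.61. Its day 0 mean was 9.85, so the ungrafted ovaries express it as well.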

How the data were processed

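Total RNA of 9 pooled samples of XX ovaries and ovarian grafts was measured on Affymetrix mouse whole-genome arrays. For 45101 probe sets the authors deposited log2 intensities from the robust multiarray algorithm (RMA), which corrects background, normalizes by quantiles and summarises probes. Its version is not given in these sources. The values come without a detection call, and their precision is limited by the number of arrays. A single gene symbol was annotated for 34958 probe sets, several for 932 and none for 9211. Each gene was represented by the probe set with the highest mean over the 9 arrays.

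Day 20 replicate 1 was set against day 15 and day 20 replicate 2, with a call where it differed from both by more than 2-fold in the same direction. This is a description without a test. The 15 largest gains and losses, by the smaller difference and without predicted or RIKEN names, and up to 4 called members per list and direction were named, with defining markers whether called or not. Of 553 genes in 49 lists, 500 were measured. The members and lists were chosen with earlier results of these data known. As an alternative, limma 3.58.1 in R 4.3.3 was fitted over all 9 arrays. Other alternatives were fold thresholds of 1.5 and 4, a floor at the 25th percentile, median centring, only probe sets above the median, genes in place of probe sets, the median of all probe sets of a gene, and each late graft left out. Calls and plots were made with pandas 2.3.3 and matplotlib 3.10.9 in Python 3.11.15. Promoter sequences are from RefSeq.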

Additional observations from a re-analysis of the deposited data

How the results depend on the processing

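With fold thresholds of 1.5 and 4, 3319 and 574 probe sets were higher and 4052 and 20 lower. With genes in place of probe sets, 770 were higher and 347 lower, and 790 probe sets were higher among those above the median by mean, where fewer were tested. limma with Benjamini-Hochberg adjustment, which borrows the spread of the paired arrays for the single pool, called 1183 probe sets higher and 556 lower at an adjusted p of 0.05 and 2-fold. As the pool is a single array and was singled out with its values known, these counts are no test of it. Leaving out a late graft in turn gave 1831 to 2333 higher and 1396 to 1441 lower probe sets, since only a single array had to be passed. The same step moved the medians of the kidney, fat, immune and ovarian lists to 1.70 to 1.74, 0.26 to 0.48, 0.59 to 1.16 and -0.44 to -0.34. It gave 0 to 2 lower kidney genes, 0 to 1 lower fat genes, 30 to 53 higher immune genes with 1 lower each time, and 4 to 5 higher and 18 to 20 lower ovarian genes. With a floor at the 25th percentile, the kidney median was 1.58. With the median over all probe sets of a gene, the kidney median was 1.61 with 1 gene lower, and the ovarian median was -0.31 with 1 gene higher and 7 lower. The lipogenesis median then turned to 0.078 and the housekeeping median to 0.049, and with a late graft left out the lipogenesis median ran from -0.099 to 0.016. The causes of these changes were not tested. Centring moved no list median by more than its spread between paired arrays. Of 170 genes named or called in a list, the difference kept its direction in all 5 alternatives tried for genes. The call was lost for 15 with the median of all probe sets and for 5 with the floor. All 170 had been chosen for differing from both late grafts by over 2-fold. The floor and leaving out a late graft therefore could not reverse them, and centring moved the arrays too little to do so. No paired analysis was possible because the pool is a single array and the labels give no pairing of arrays.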

Other observations

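Several genes outside the lists and the 15 largest changes were also far higher on the pool, and were chosen after their values were seen. Chil3, a chitinase-like protein of alternatively activated macrophages, had 10.51 on the pool, against 3.42 on day 15 and 3.50 on day 20 replicate 2, and no more than 4.89 on any earlier array. Defb1, a defensin of epithelia, had 11.30 on the pool, against 4.82 and 4.93 on the late grafts. Cldn2, the claudin of the leaky proximal tubule junction, had 12.11 on the pool, against 6.08 and 6.08 on the late grafts. Fxyd2, the gamma subunit of the sodium pump, had 13.35 on the pool, against 7.09 and 7.06 on the late grafts. Ubd, a ubiquitin-like modifier induced by interferon gamma, had 10.72 on the pool, against 3.82 on day 15 and 4.65 on day 20 replicate 2, and 7.59 on day 7.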
